A study of Mus musculus with 6 samples.

Results

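Mecom, Prdm16, Angpt1 and Setbp1 are 4 of the 33924 genes in a count table of mouse MLL-AF9 leukaemia cells. They were picked by symbol, with their counts in these libraries already known: Mecom and Angpt1 for their difference between the groups, Prdm16 and Setbp1 as further genes linked to EVI1 or to the same kind of leukaemia. The values of these 4 genes are therefore a description and carry no test.

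Mecom encodes EVI1, a zinc finger transcription factor that haematopoietic stem cells need for self-renewal, and its locus takes its older name from an integration site of a mouse leukaemia virus. PRDM16 is its closest relative, shares its zinc finger arrays and its binding to the CtBP corepressors, and also maintains stem cells. High EVI1 marks an aggressive class of human acute myeloid leukaemia that includes MLL-rearranged cases, and Mecom, Prdm16 and Setbp1 are all known sites at which retroviral integration has switched a gene on in myeloid cells. SETBP1 binds the protein SET, which inhibits the phosphatase PP2A, and angiopoietin 1, the product of Angpt1, is a secreted ligand of the receptor TIE2 that stem cells and their niche use to keep stem cells quiet.

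RNA of 6 cultures was sequenced. The 3 LSK-derived libraries, numbered 44, 45 and 46, came from leukaemia that began in LSK cells (lineage-negative, Sca-1-positive, Kit-positive marrow cells, the fraction that holds stem cells), and the 3 GMP-derived libraries, numbered 5, 11 and 19, from leukaemia that began in granulocyte-macrophage progenitors. All 6 share the rest: the starting cells carried the MLL-AF9 oncogene on a retrovirus, GFP+ cells were put into irradiated C57BL/6 mice together with wild-type support marrow, and leukaemic cells of sick animals were then cultured with SCF and the interleukins IL-3 and IL-6. The labels give no untransduced cells and no age, and leave unsaid if libraries within a group stem from separate transductions or mice, so any p-value here measures the spread between these libraries only. In bulk RNA, fewer expressing cells and less RNA per cell cannot be told apart.

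LSK-derived libraries held 16640929 to 25628145 counts and GMP-derived libraries 24411366 to 33885428. After a filter on low counts, 13406 genes were tested with edgeR's quasi-likelihood test, and a gene was called at a Benjamini-Hochberg adjusted p below 0.05. The 8 myeloid markers checked were detected in all 6 libraries, with summed levels of 2843 to 4122 CPM in LSK-derived and 3141 to 5154 CPM in GMP-derived libraries. Kit was called higher in LSK-derived libraries, and 4 were called lower, Ptprc, Cebpa, Ctsg and Csf3r. Of all tested genes, 11.8% were called higher and 13.9% lower. In GMP-derived libraries 5, 11 and 19, Mpo had 13.8, 316 and 500 CPM and Elane 65.45, 815 and 1562 CPM. CPM is a count scaled to a common library size, here with TMM factors unless said otherwise. All marker sums use all counts without these factors. Errors are SD with n = 3 unless said otherwise.

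Of the 4 genes, 2 passed the filter, Mecom and Angpt1. Both were called and higher in LSK-derived libraries, where 11.8% of all tested genes were called higher, and the libraries of the groups did not overlap for either gene, as for 45.4% of tested genes. Nothing is read from these counts, since the genes were chosen on this contrast. Prdm16 and Setbp1 had too few reads in both groups to be tested.

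RefSeq gives Mecom 2 starts on chromosome 3, 497 kb apart. The upstream start opens the long MDS1-EVI1 transcripts, which encode a PR domain, and the downstream start opens EVI1 transcripts without it. The counts are per gene, so they cannot tell these forms apart. Prdm16 lies on chromosome 4. The 250 bases before each of these starts are shown because Mecom was read in LSK-derived cells and nearly unread in GMP-derived cells, while Prdm16 had no read in either. They are from RefSeq on GRCm38.p6, 5′ to 3′ on the gene's own strand, and capitals mark the single motif match:

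Mecom, upstream start, chr3:30509760-30510009, minus strand: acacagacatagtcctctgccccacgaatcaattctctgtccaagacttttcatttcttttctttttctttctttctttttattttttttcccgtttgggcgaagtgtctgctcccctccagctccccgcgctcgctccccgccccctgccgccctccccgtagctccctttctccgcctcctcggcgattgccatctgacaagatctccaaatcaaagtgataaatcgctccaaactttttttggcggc
Mecom, downstream start, chr3:30013205-30013454, minus strand: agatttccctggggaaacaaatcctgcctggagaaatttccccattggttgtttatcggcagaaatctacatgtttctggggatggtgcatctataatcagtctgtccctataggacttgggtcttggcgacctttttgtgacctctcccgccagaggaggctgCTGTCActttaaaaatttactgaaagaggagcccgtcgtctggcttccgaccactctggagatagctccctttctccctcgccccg
Prdm16, chr4:154636874-154637123, minus strand: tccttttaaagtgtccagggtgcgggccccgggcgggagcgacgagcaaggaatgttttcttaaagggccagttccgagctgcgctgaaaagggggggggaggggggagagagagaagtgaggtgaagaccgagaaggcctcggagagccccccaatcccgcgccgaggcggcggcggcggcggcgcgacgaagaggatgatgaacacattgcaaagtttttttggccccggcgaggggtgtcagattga

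The GC content of these windows was 50.8% and 50.4% at the upstream and downstream starts of Mecom and 62.4% at Prdm16. They were searched on both strands for motifs of EVI1 itself and of factors of MLL leukaemia. GACAAGATA, bound by the N-terminal zinc fingers of EVI1, and GATGAG, bound by its C-terminal fingers, occurred in none of the 3 windows. Among 32851 RefSeq promoter windows of this length, 0.107% held GACAAGATA and 10.1% held GATGAG. The shorter GATA-type motif AGATAA (9.99% of windows), the RUNX motif TGTGGT (14.0%) and the HOXA9-MEIS1 motif TGATTTAT (0.837%) were not found either. The MEIS motif TGACAG, held by 15.9% of windows, was found once, on the opposite strand before the downstream start of Mecom, beginning 86 bases before it, and reads CTGTCA on the strand shown. Of these motifs, AGATAA and GACAAGATA share the letters AGATA. A match says only that these letters are there. Beyond the stretches printed, the transcribed sequences just after the upstream Mecom start and the Prdm16 start share a run of 24 identical bases, from base 27 to 50 after the Mecom start and from base 10 to 33 after the Prdm16 start.

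Mecom was read 2384, 4754 and 4322 times in LSK-derived libraries 44, 45 and 46, against 0, 4 and 4 times in GMP-derived libraries 5, 11 and 19. In CPM these are 144, 187 and 180 in LSK-derived cells and 0, 0.119 and 0.117 in GMP-derived cells. Every LSK-derived library was far above every GMP-derived library, and 1 GMP-derived library had no read at all. The log2 fold change was 10.87, the largest positive value among the 13406 tested genes.

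The level of Mecom in LSK-derived cells was that of a well expressed gene. It ranked 1699, 1215 and 1246 of 13406 by CPM in LSK-derived libraries 44, 45 and 46, above 87.3%, 90.9% and 90.7% of tested genes. In GMP-derived libraries 5, 11 and 19 it ranked 13333, 13263 and 13289, near the bottom of the tested genes, which it joined only through its LSK-derived reads. Per kb of its longest coding transcript, a measure that allows genes to be compared, Mecom stood at 29.9 ± 4.01 CPM per kb in LSK-derived cells against 0.0138 ± 0.0120 CPM per kb in GMP-derived cells. In LSK-derived cells this was below the levels of the leukaemic transcription factors Hoxa9 (59.1 CPM per kb), Spi1 (58.1) and Cebpa (38.1), and above Gata2 (21.7) and Runx1 (10.6).

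The residual reads in GMP-derived cells set a narrow limit. Pooled over the 3 GMP-derived libraries, 8 Mecom reads give 0.0868 CPM, with an exact 95% Poisson interval of 0.0375 to 0.171, against 173 CPM (interval 170 to 177) from 11460 reads in LSK-derived libraries. These pooled levels use all counts without TMM scaling, and the intervals cover counting error only. The size of the fold change depends on how such low counts are treated: it was 10.04 with a prior count of 2, above edgeR's default, and 11.22 by limma voom.

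The LSK-derived libraries differed among themselves more than is usual for this level. The SD of log2(CPM + 0.5) for Mecom was 0.20 over the 3 LSK-derived libraries, while the median SD of 2573 genes within 2-fold of its level was 0.085, and 91.8% of them had a smaller SD. In GMP-derived libraries the SD of Mecom was 0.18 against a median of 0.16 for 86 genes of like level. Genes this low in GMP-derived cells could pass the filter only with their LSK-derived counts. At 0 to 4 Mecom reads a library, the SD also rests largely on the 0.5 CPM added, so nothing is read from this comparison. In LSK-derived cells, library 44 was the low library and libraries 45 and 46 lay close together.

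**Figure D1:**
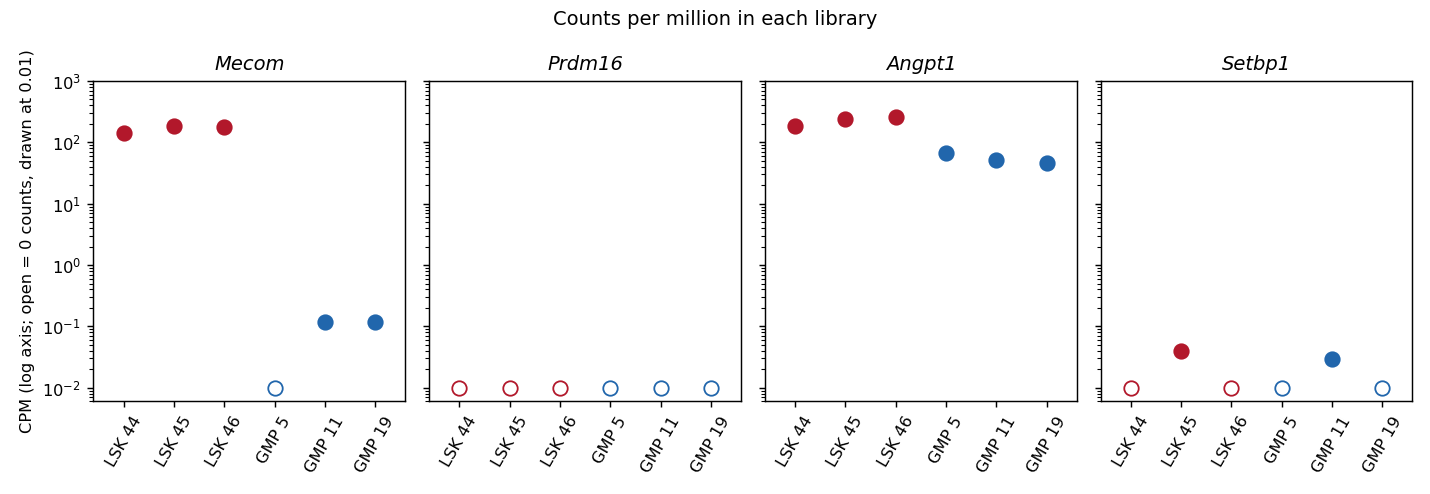
Level of each gene in CPM on a log axis, 1 point per library, LSK-derived in red and GMP-derived in blue, with libraries at 0 counts drawn as open circles at 0.01. Mecom sits at 144 to 187 CPM in LSK-derived libraries and at 0 to 0.119 CPM in GMP-derived libraries, Angpt1 is separated in the same direction by a smaller gap, and Prdm16 and Setbp1 are at or near 0 in every library.

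Prdm16 had no read in any library, LSK-derived or GMP-derived. A count of 0 allows up to 3 counts, which pooled over the group is 0.0454 CPM in LSK-derived against 0.0326 CPM in GMP-derived libraries. Expression of this relative of EVI1 was therefore not detectable in either leukaemia at this depth, and no fold change is given.

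Setbp1 was read once in LSK-derived library 45 and once in GMP-derived library 11, with 0 reads in the other 4 libraries. The pooled level was 0.0151 CPM in LSK-derived cells (exact 95% Poisson interval 0.000383 to 0.0843) and 0.0109 CPM in GMP-derived cells (0.000275 to 0.0605). Both groups lie under the level of 3 counts, so they cannot be ordered.

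Angpt1 is set apart from the transcription factors as a secreted ligand, reported as a gene that EVI1 raises in mouse stem cells. It was read 3092, 6188 and 6187 times in LSK-derived libraries 44, 45 and 46, against 1650, 1720 and 1586 times in GMP-derived libraries 5, 11 and 19. In CPM these are 187, 243 and 258 in LSK-derived cells and 67.6, 51.1 and 46.5 in GMP-derived cells. The groups did not overlap, with LSK-derived library 44 the lowest of its group and GMP-derived library 5 the highest of the other.

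Unlike Mecom, Angpt1 was expressed in both leukaemias. Its log2 fold change of 2.06 put it at place 382 among the 13406 tested genes, counted from the largest increase. It stood above 90.9%, 93.8% and 94.3% of tested genes in LSK-derived libraries 44, 45 and 46, and above 71.0%, 64.2% and 61.8% in GMP-derived libraries 5, 11 and 19. Per kb of coding transcript the level was 53.8 ± 8.75 CPM per kb in LSK-derived cells against 12.9 ± 2.61 CPM per kb in GMP-derived cells, which made it higher than Mecom in both. GMP-derived cells had 4 Mecom reads or fewer in a library and 1586 Angpt1 reads or more.

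Angpt1 also varied within each group more than most genes of its level. The SD of log2(CPM + 0.5) was 0.25 in LSK-derived libraries, where the median of 1932 genes of like level was 0.084 and 94.2% had a smaller SD. In GMP-derived libraries the SD was 0.28, against a median of 0.12 over 4285 genes, 89.5% of which had a smaller SD. In LSK-derived cells, library 44 was the lowest for Mecom and for Angpt1.

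Exons of other annotated genes overlap those of Mecom, Prdm16 and Angpt1, but their counts were negligible. The antisense gene Mecomos and the gene B230104I21Rik at Prdm16 had 0 reads, and Gm17473 at Angpt1 had 2 reads in all 6 libraries. Whether reads were counted by strand is not given in the sources used here.

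The other PR domain genes showed nothing like the Mecom difference. Of 13 family members other than Mecom and Prdm16, 6 passed the filter, and 0 were called in either direction by edgeR, where 25.7% of all tested genes were called (11.8% higher and 13.9% lower). Their median log2 fold change was 0.09, against 0.01 for all tested genes, and their values ran from -0.18 to 0.23. The 6 tested members were read in every library of both groups. Prdm2, which encodes the histone methyltransferase RIZ, had 83.7 ± 12.7 CPM in LSK-derived against 95.1 ± 3.09 CPM in GMP-derived cells (log2 fold change -0.18 ± 0.11 SE, adjusted p = 0.261), and was called lower only without LSK-derived library 45 (adjusted p = 0.0301, with 0.0301 to 0.566 over the alternatives). Prdm1, which encodes the lymphoid and myeloid repressor BLIMP1, was read 0, 2 and 5 times in LSK-derived libraries and 0 times in each GMP-derived library. Prdm14 had no read, and Prdm6, Prdm8, Prdm12 and Prdm13 had 1 to 7 reads in all libraries together. Per kb, Prdm4 stood at 12.8 CPM in LSK-derived against 12.7 CPM in GMP-derived cells, so Mecom exceeded it in LSK-derived cells.

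The protein partners through which EVI1 and PRDM16 act were nearly all expressed. Of 23 genes, 22 were tested, and 4 were called higher and 3 lower in LSK-derived cells, with a median log2 fold change of 0.19. Over all tested genes, 11.8% were called higher and 13.9% lower. Of the CtBP corepressors, the best known partners of both proteins, Ctbp2 fell and Ctbp1 was not called. Ctbp2 had 76.0 ± 3.13 CPM in LSK-derived against 97.4 ± 6.96 CPM in GMP-derived cells (log2 fold change -0.36, adjusted p = 0.0163). Ctbp1 had 177 ± 11.4 CPM in LSK-derived against 146 ± 14.6 CPM in GMP-derived cells, with a log2 fold change of 0.28 that was not called (adjusted p = 0.0636). The opposite signs of Ctbp1 and Ctbp2 held in every alternative fit. The call of Ctbp2 was lost without LSK-derived library 44, LSK-derived library 46 or GMP-derived library 11 (adjusted p of 0.0669, 0.0704 and 0.0508, with 0.000578 to 0.0704 over the alternatives), and Ctbp1 was called with upper-quartile scaling (0.0478), by DESeq2 (0.0285) and without GMP-derived library 19 (0.0496), with 0.0285 to 0.193 over the alternatives.

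Among the enzymes of the complexes, Hdac3, a histone deacetylase, was higher with 126 ± 4.05 CPM in LSK-derived against 92.4 ± 1.64 CPM in GMP-derived cells (log2 fold change 0.44, adjusted p = 0.0033). Dnmt3b, a de novo DNA methyltransferase, was higher with 44.9 ± 13.3 CPM in LSK-derived against 15.2 ± 3.08 CPM in GMP-derived cells (log2 fold change 1.57 ± 0.25 SE, adjusted p = 0.00693). Smad3, the TGF-beta effector whose activity EVI1 represses, was higher with 17.5 ± 3.46 CPM in LSK-derived against 7.65 ± 1.22 CPM in GMP-derived cells (log2 fold change 1.20, adjusted p = 0.00613). The Polycomb partners moved apart: Eed had a log2 fold change of 0.32 (adjusted p = 0.0216), with 85.9 ± 4.51 CPM in LSK-derived against 68.9 ± 3.73 CPM in GMP-derived cells, and Suz12 one of -0.33 (adjusted p = 0.0104), with 356 ± 11.5 CPM in LSK-derived against 447 ± 14.5 CPM in GMP-derived cells.

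Of the blood-forming transcription factors among the partners, Cebpb fell, while Gata1, Spi1 and Runx1 were not called. Cebpb, an activator of late myeloid genes, had 9.25 ± 1.32 CPM in LSK-derived against 25.2 ± 5.27 CPM in GMP-derived cells (log2 fold change -1.45, adjusted p = 0.00308). Spi1, which encodes the myeloid master regulator PU.1, had 118 ± 13.0 CPM in LSK-derived against 163 ± 38.2 CPM in GMP-derived cells (log2 fold change -0.47, adjusted p = 0.0982), and was called by DESeq2 (0.0355) and without GMP-derived library 5 (adjusted p = 0.0238, with 0.0238 to 0.261 over the alternatives). Gata1, the erythroid and megakaryocyte master regulator, had 3.45, 0.157 and 8.16 CPM in LSK-derived libraries 44, 45 and 46, against 0.533, 0.208 and 0.440 CPM in GMP-derived libraries 5, 11 and 19 (log2 fold change 3.32 ± 1.18 SE, adjusted p = 0.0861). Library 45 had less Gata1 than any GMP-derived library, and the gene was called by DESeq2 (0.0070) and without library 45 (0.0061), with 0.0061 to 0.396 over the alternatives. Runx1, a core stem cell factor, had 62.4 ± 14.9 CPM in LSK-derived against 43.9 ± 18.6 CPM in GMP-derived cells (log2 fold change 0.50, adjusted p = 0.335). Eed lost its call without LSK-derived library 44, LSK-derived library 46 or GMP-derived library 19 (adjusted p of 0.0818, 0.0855 and 0.0591, with 0.00189 to 0.0855 over the alternatives).

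Genes reported as regulated by EVI1, PRDM16 or SETBP1 gave a mixed picture. Of 20 such genes 17 were tested, and 3 were called higher, 6 lower and 8 not called, where 11.8% of all tested genes were called higher and 13.9% lower. The median log2 fold change was 0.29. Without GMP-derived library 5 the number called higher was 7. The list joins genes reported in several cell types and with either direction, so no common direction was to be looked for.

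The 3 that rose were Gfi1b, Gpr56 and Bcl2l1. Gfi1b, a repressor of the stem cell and megakaryocyte-erythroid lineages that PRDM16 raises in mouse MLL-rearranged leukaemia, had 14.8, 7.10 and 32.5 CPM in LSK-derived libraries 44, 45 and 46, against 0, 0.208 and 0.205 CPM in GMP-derived libraries 5, 11 and 19 (log2 fold change 6.89 ± 0.89 SE, adjusted p = 0.00375). Like Mecom it was at or near 0 in GMP-derived libraries, and it was read in LSK-derived libraries that had no Prdm16 read. Gpr56, an adhesion receptor that marks EVI1-high human leukaemia, had 306, 275 and 482 CPM in LSK-derived libraries 44, 45 and 46, against 78.9, 16.7 and 24.2 CPM in GMP-derived libraries 5, 11 and 19 (log2 fold change 3.16 ± 0.64 SE, adjusted p = 0.0174). The LSK-derived and GMP-derived libraries did not overlap for either gene. The Gpr56 call was lost without LSK-derived library 46 or GMP-derived library 19 (adjusted p of 0.0611 and 0.0664) and with no filter on low counts (0.0677), in a range of 0.000236 to 0.0677 over the alternatives.

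Bcl2l1, which encodes the survival protein BCL-XL, reported as raised by EVI1 in human cells, had 48.1 ± 10.5 CPM in LSK-derived against 29.9 ± 1.08 CPM in GMP-derived cells (log2 fold change 0.69, adjusted p = 0.0193). This call was lost without LSK-derived library 44 or GMP-derived library 11 (adjusted p of 0.0615 and 0.0588, with 0.000668 to 0.0615 over the alternatives).

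Gata2, a stem cell factor whose promoter EVI1 binds and activates in the mouse, had 64.5, 60.1 and 108 CPM in LSK-derived libraries 44, 45 and 46, against 45.6, 13.8 and 12.0 CPM in GMP-derived libraries 5, 11 and 19. No LSK-derived library was below a GMP-derived library, yet the gene was not called (log2 fold change 1.72 ± 0.56 SE, adjusted p = 0.0699). It was called with all 6 libraries by DESeq2 (adjusted p = 0.0353) and limma voom (0.0237). Without GMP-derived library 5, the high library of its group, the log2 fold change was 2.58 and the adjusted p 0.00502, with 0.00502 to 0.201 over the alternatives.

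The 6 targets that fell included both Hoxa genes of the list. Hoxa9 and Hoxa10, homeobox genes that MLL fusions keep on and that SETBP1 raises in mouse progenitors, had log2 fold changes of -0.78 (adjusted p = 0.000682) and -1.35 (adjusted p = 0.00119). Per kb, Hoxa10 stood at 34.6 CPM in LSK-derived against 88.0 CPM in GMP-derived cells, so Mecom came near the level of Hoxa10 in LSK-derived cells but not in GMP-derived cells. Cebpa, the granulocytic factor that EVI1 represses, had 100 ± 23.4 CPM in LSK-derived against 178 ± 6.67 CPM in GMP-derived cells (log2 fold change -0.83, adjusted p = 0.0112). Mfn2, a mitochondrial fusion gene that PRDM16 induces in mouse stem cells, had 91.6 ± 7.09 CPM in LSK-derived against 124 ± 7.93 CPM in GMP-derived cells (log2 fold change -0.44, adjusted p = 0.0111). The others were Cd52, a surface antigen of EVI1-high human leukaemia, with a log2 fold change of -0.98 (adjusted p = 0.0360), and Fos, an immediate early gene, with one of -2.58 (adjusted p = 0.0384) and only 0.511 ± 0.0813 CPM in LSK-derived against 3.03 ± 2.07 CPM in GMP-derived cells. Cd52 lost its call in 5 of 11 alternatives (adjusted p of 0.00408 to 0.123) and Fos in 6 of 11 (0.00177 to 0.127), among them, for both, limma voom and leaving out LSK-derived library 44, LSK-derived library 46, GMP-derived library 11 or GMP-derived library 19, and for Fos also LSK-derived library 45.

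**Figure D2:**
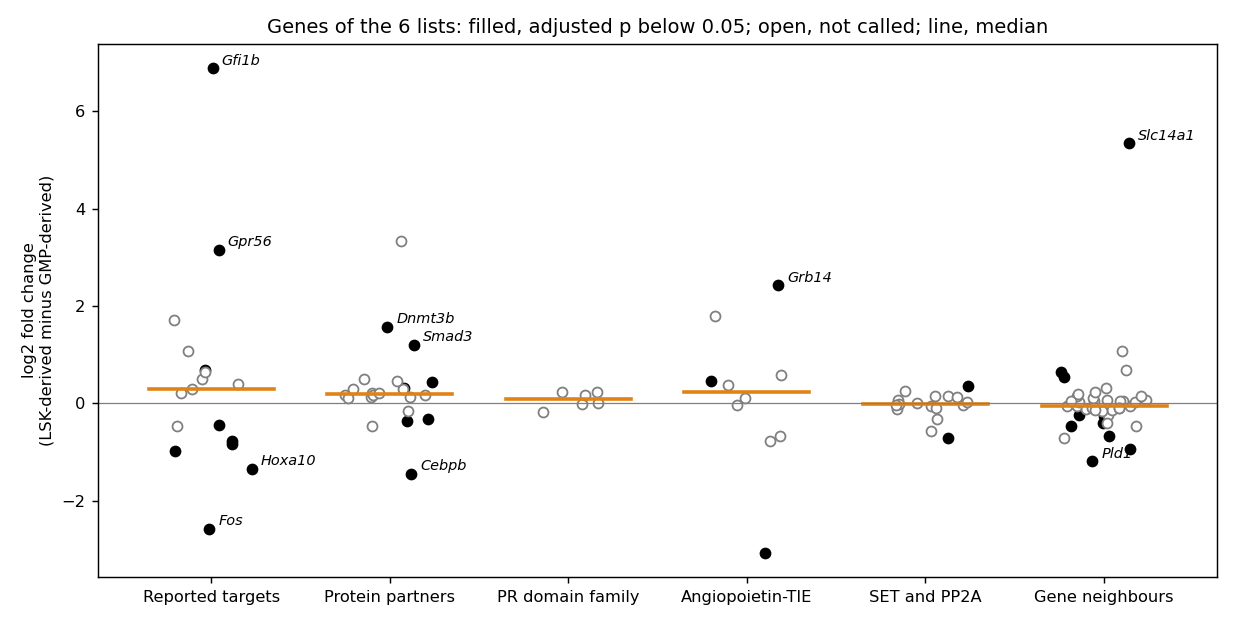
Log2 fold change (LSK-derived minus GMP-derived) of each tested gene in the 6 lists, filled where the adjusted p was below 0.05 and open where not, with the median of each list as a line. Gfi1b at 6.89 and Slc14a1 at 5.34 stand highest among the called genes, and the PR domain family lies within -0.18 to 0.23.

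The receptor side of Angpt1 was nearly silent. Tek, which encodes its receptor TIE2, had 1 read in LSK-derived and 2 reads in GMP-derived libraries, and Tie1, the partner receptor, had 16 reads in LSK-derived libraries, 12 of them in library 46, and 3 in GMP-derived libraries. The cells with 15467 Angpt1 reads in the LSK-derived group thus showed almost none from its receptor genes. Of the 17 angiopoietin, angiopoietin-like, receptor and adaptor genes, 10 were tested, 2 were called higher and 1 lower, and the median log2 fold change was 0.24. Over all tested genes, 11.8% were called higher and 13.9% lower.

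Angpt2, the competing ligand, stayed low, with 0.751 ± 0.236 CPM in LSK-derived against 1.29 ± 0.556 CPM in GMP-derived cells (log2 fold change -0.78, adjusted p = 0.198). The genes that rose encode adaptors. Grb2, a general adaptor of receptor tyrosine kinases, had 299 ± 32.8 CPM in LSK-derived against 218 ± 12.7 CPM in GMP-derived cells (log2 fold change 0.46, adjusted p = 0.0144). Grb14, an adaptor that also binds the insulin receptor, had 10.3 ± 4.46 CPM in LSK-derived against 1.90 ± 1.12 CPM in GMP-derived cells (log2 fold change 2.42 ± 0.56 SE, adjusted p = 0.0249). Grb14 lost its call without LSK-derived library 44, LSK-derived library 45 or GMP-derived library 19 (adjusted p of 0.0762, 0.0576 and 0.0812, with 6.65e-05 to 0.0812 over the alternatives), and the number called higher ran from 1, without LSK-derived library 44 or GMP-derived library 19, to 4, without GMP-derived library 5.

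The genes through which SETBP1 acts were expressed in both leukaemias, although Setbp1 itself was at the floor, and most were not called. Of 17 genes for SET, PP2A and the chromatin partners of SETBP1, all 17 were tested, 1 was called higher and 1 lower, and the median log2 fold change was -0.02. Over all tested genes, 25.7% were called, 11.8% higher and 13.9% lower, so most were not called there either. Set, the PP2A inhibitor that SETBP1 stabilises, had 844 ± 94.8 CPM in LSK-derived against 705 ± 95.4 CPM in GMP-derived cells (log2 fold change 0.26, adjusted p = 0.171). Ppp2ca, the catalytic subunit, had 419 CPM in LSK-derived against 421 CPM in GMP-derived cells, a difference too small for a direction (adjusted p = 0.975). Ppp2r5a, a regulatory subunit, fell to 154 ± 6.77 CPM in LSK-derived cells, against 251 ± 16.5 CPM in GMP-derived cells (log2 fold change -0.71 ± 0.07 SE, adjusted p = 0.00153). Phf6, a chromatin gene mutated in human leukaemia, was higher by 0.36 on the log2 scale (adjusted p = 0.0168). That call was lost without LSK-derived library 46 or GMP-derived library 11 (adjusted p of 0.0700 and 0.0534, with 0.000549 to 0.0700 over the alternatives).

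Of the 5 nearest tested genes on each side of Mecom, 0 were called higher and 4 lower, where 11.8% of all tested genes were called higher and 13.9% lower, and all 10 had a log2 fold change below 0, from -1.19 to -0.05 with a median of -0.35. For comparison, 602 tested genes of chromosome 3 had a median of -0.00, and 51.0% of them were below 0. The nearest tested gene on either side was not called: Rpl22l1, a ribosomal protein paralogue, had 193 CPM in LSK-derived against 202 CPM in GMP-derived cells, and Mynn, a zinc finger gene, had 31.9 CPM in LSK-derived against 33.0 CPM in GMP-derived cells, with adjusted p of 0.631 and 0.709.

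The neighbours that fell were Eif5a2, Pld1, Phc3 and Sec62. Eif5a2, a translation factor, had 9.33 ± 0.473 CPM in LSK-derived against 17.9 ± 2.26 CPM in GMP-derived cells (log2 fold change -0.94 ± 0.13 SE, adjusted p = 0.00373). Pld1, a phospholipase, had 9.11 ± 2.54 CPM in LSK-derived against 20.9 ± 3.39 CPM in GMP-derived cells (log2 fold change -1.19, adjusted p = 0.0108). Phc3, a Polycomb subunit, and Sec62, a protein translocation factor, had log2 fold changes of -0.46 (adjusted p = 0.00413) and -0.23 (adjusted p = 0.0424). Sec62 lost its call in 7 of 11 alternatives, with upper-quartile scaling, with no filter, and without any 1 library but LSK-derived library 45 (adjusted p of 0.00863 to 0.154 over the alternatives). The number called lower was 2 without LSK-derived library 44, where the Pld1 call was lost (adjusted p = 0.0503, with 2.49e-05 to 0.0503 over the alternatives), and 9 or 10 of the 10 were below 0 in every alternative.

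The surroundings of the other genes were mixed, where 11.8% of all tested genes were called higher and 13.9% lower. Beside Prdm16, 1 of 10 neighbours was called higher, the pantothenate kinase relative Pank4, with 31.6 ± 0.418 CPM in LSK-derived against 21.7 ± 1.02 CPM in GMP-derived cells (log2 fold change 0.55, adjusted p = 0.00427), and 1 lower, Tprgl, a synaptic vesicle gene (log2 fold change -0.40, adjusted p = 0.0136). These neighbours had to pass the filter on low counts, and 4 and 10 annotated genes lie between Prdm16 and the nearest of them on either side. Tprgl lost its call without LSK-derived library 44 or LSK-derived library 46 (adjusted p of 0.0609 and 0.0592, with 0.000322 to 0.0609 over the alternatives).

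Beside Angpt1, 0 of 10 were called higher, with log2 fold changes of -0.67 to 0.32, and 2 lower, Atp6v1c1, a proton pump subunit, and Emc2, an endoplasmic reticulum gene, both not called without LSK-derived library 44, LSK-derived library 46 or GMP-derived library 11. Emc2 lost its call in 6 of 11 alternatives (adjusted p of 0.00325 to 0.0989). Of all tested genes, 11.8% were called higher and 13.9% lower. Beside Setbp1, 2 of 10 were called higher: Slc14a1, a urea transporter of red cells, with 2.77 ± 2.09 CPM in LSK-derived against 0.0589 ± 0.0586 CPM in GMP-derived cells (log2 fold change 5.34 ± 0.87 SE, adjusted p = 0.00708), and Pstpip2, a cytoskeletal gene of myeloid cells, with 71.9 ± 8.04 CPM in LSK-derived against 46.2 ± 6.92 CPM in GMP-derived cells (log2 fold change 0.64, adjusted p = 0.0144).

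**Figure D3:**
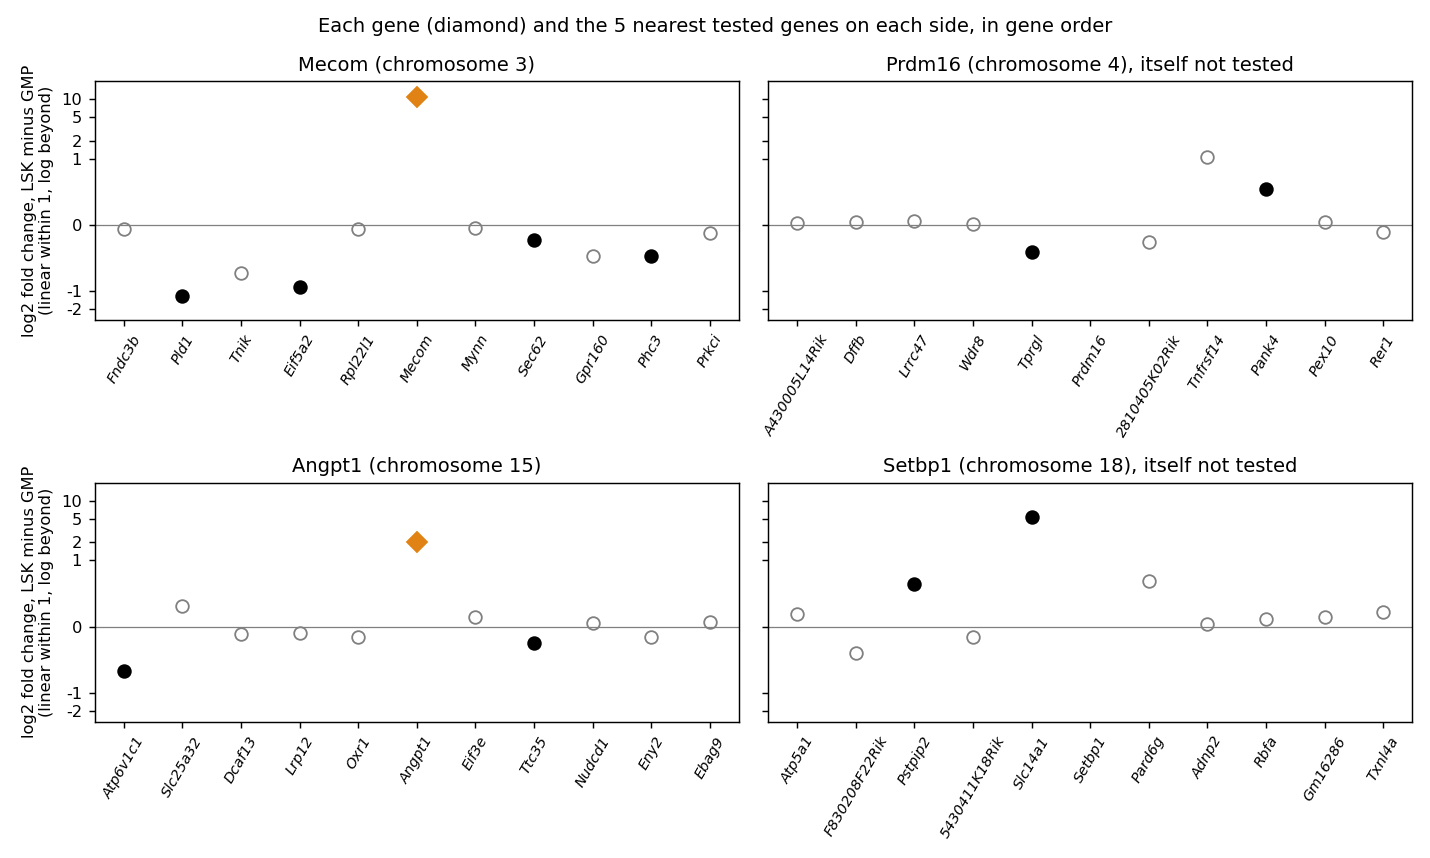
Log2 fold change (LSK-derived minus GMP-derived; axis linear within 1 and logarithmic beyond) of each gene, as a diamond where tested, and of the 5 nearest tested genes on each side in gene order, filled where called. Mecom stands at 10.87 between 10 neighbours that all lie below 0, at -1.19 to -0.05, while Angpt1 stands at 2.06 among neighbours at -0.67 to 0.32.

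Other genes had profiles like that of Mecom over the 6 libraries. By Euclidean distance between log2(CPM + 0.5) profiles, each centred on its mean, the nearest to Mecom were the adhesion receptor gene Lphn2 (distance 3.03), Arap2 (3.35), the melanocortin receptor gene Mc5r (3.44), the sphingolipid transporter gene Spns2 (3.48) and Cxxc5 (3.58), against a median distance of 10.0 over 11182 genes compared. Lphn2 had 50.2 ± 10.5 CPM in LSK-derived against 0.391 ± 0.372 CPM in GMP-derived cells, and Spns2 had 166 ± 77.2 CPM in LSK-derived against 2.92 ± 0.519 CPM in GMP-derived cells. Mecom had the largest positive log2 fold change of all tested genes, so no other gene could match its contrast. The nearest to Angpt1 were H2-Ob (0.398), Lypd6b (0.444), O3far1 (0.455), Zfp599 (0.472) and Tbc1d10c (0.567), where the median distance was 2.58. H2-Ob, a class II histocompatibility gene, had 17.8 ± 4.32 CPM in LSK-derived against 4.60 ± 0.736 CPM in GMP-derived cells. These lists depend on the pseudocount: with 5 CPM in place of 0.5, 2 of the 5 genes for Mecom and 0 of the 5 for Angpt1 stayed among the nearest.

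Summed markers of other cell types were compared between the groups. Those of megakaryocytes, stroma and endothelium did not overlap, and those of mast cells and basophils and of erythroid cells did. The 8 megakaryocyte markers summed to 38.8, 14.0 and 94.1 CPM in LSK-derived libraries 44, 45 and 46, against 11.6, 1.18 and 2.75 CPM in GMP-derived libraries 5, 11 and 19, with Gp1bb and Gp6 at 0 in every GMP-derived library. Itga2b made up most of each LSK-derived sum, with 28.7, 9.30 and 73.1 CPM. It had 10.9 CPM in GMP-derived library 5, overlapped between the groups and was not called (adjusted p = 0.127). Vwf was the only marker of this list called, and was higher in LSK-derived cells (log2 fold change 2.81, adjusted p = 0.00342). Gfi1b, Gpr56, Gata2 and Gata1 were lowest in library 45 and highest in library 46 within the LSK-derived group, the order of the megakaryocyte sum. The part of megakaryocytes in those results was not tested. Mecom was highest of the LSK-derived group in library 45, at 187 CPM, and the part of megakaryocytes in its difference was not tested.

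Angpt1 is made by stromal cells and megakaryocytes as well as by stem cells. The 10 stromal markers summed to 1.59 to 6.71 CPM in LSK-derived against 18.1 to 41.7 CPM in GMP-derived libraries, with Col1a2, Dcn and Lum at 0 in all 6. Pdgfrb made up most of the sum in every library but LSK-derived library 46, with 2.63 ± 2.17 CPM in LSK-derived against 26.9 ± 11.6 CPM in GMP-derived libraries. It was called lower in LSK-derived cells (log2 fold change -3.34, adjusted p = 0.0206). Acta2 was also called lower, with 0.358 ± 0.0868 CPM in LSK-derived against 4.62 ± 0.841 CPM in GMP-derived cells (log2 fold change -3.66, adjusted p = 0.000657). Lepr ran the other way, with 0.793 ± 0.540 CPM in LSK-derived against 0.220 ± 0.161 CPM in GMP-derived cells, and was not called (log2 fold change 1.79, adjusted p = 0.0991). The part of stromal cells in the Angpt1 difference was not tested. The 8 endothelial markers summed to 12.9 to 16.4 CPM in LSK-derived against 7.74 to 9.07 CPM in GMP-derived libraries. Emcn was at 0 in all 6. Egfl7 made up most of the sum in every library, with 12.4 ± 2.18 CPM in LSK-derived against 6.93 ± 0.901 CPM in GMP-derived libraries. It was the only marker of this list called, and was higher in LSK-derived cells (log2 fold change 0.84, adjusted p = 0.0163). Plvap ran the other way and was not called (log2 fold change -0.27, adjusted p = 0.610). The part of endothelial cells in the Angpt1 difference was not tested either. The 9 mast cell and basophil markers summed to 35.4 to 38.7 CPM in LSK-derived against 15.5 to 107 CPM in GMP-derived libraries, the highest being library 5. Cpa3 alone had 88.5 CPM in library 5, and 6 of the 9 were at 0 in every GMP-derived library. Mcpt8 made up most of each LSK-derived sum, with 30.6 ± 1.13 CPM in LSK-derived against 13.1 ± 1.96 CPM in GMP-derived cells. It was the only marker of this list called, and was higher in LSK-derived cells (log2 fold change 1.22, adjusted p = 0.00153). Within the GMP-derived group, Mcpt8 and Ms4a2 had 14.6 and 4.22 CPM in library 5, against 13.9 and 3.56 CPM in library 11. Gata2 was also highest of the GMP-derived group in library 5, and the part of mast cells and basophils in it was not tested. The 8 erythroid markers summed to 1.13 to 9.77 CPM in LSK-derived against 1.39 to 1.45 CPM in GMP-derived libraries.

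**Figure D4:**
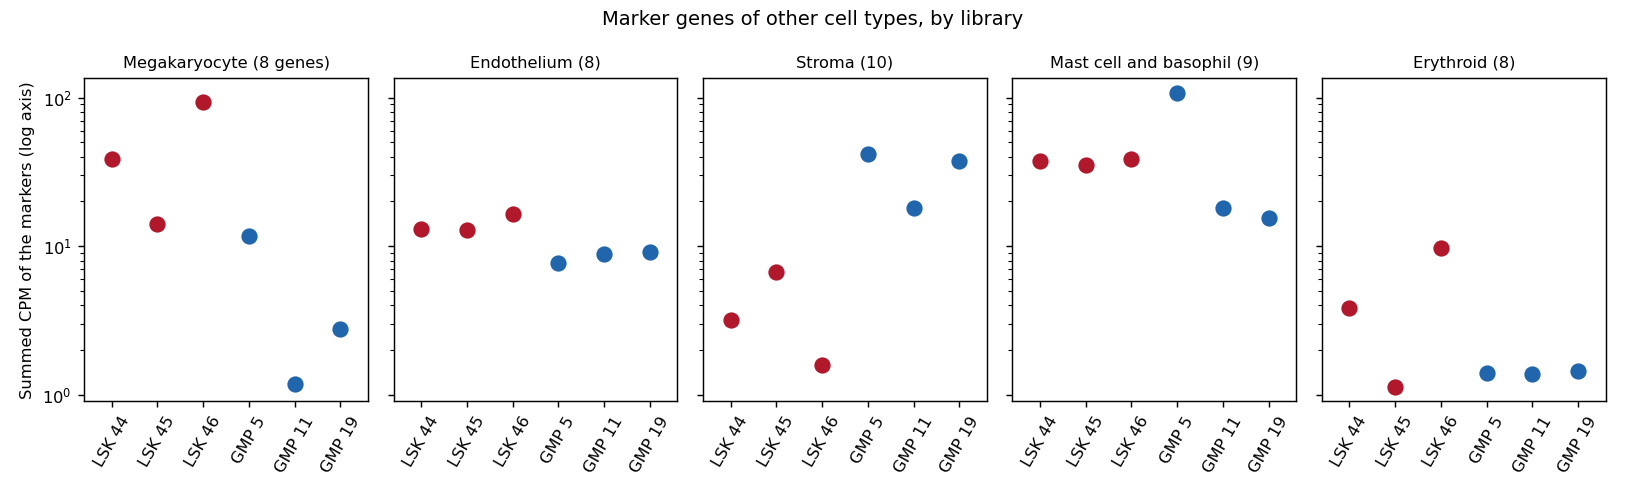
Summed CPM (log axis) of marker genes of 5 other cell types, 1 point per library, LSK-derived in red and GMP-derived in blue. Megakaryocyte markers run from 14.0 to 94.1 CPM in LSK-derived against 1.18 to 11.6 CPM in GMP-derived libraries, and the stromal sums run the other way, at 1.59 to 6.71 CPM in LSK-derived against 18.1 to 41.7 CPM in GMP-derived libraries.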

How the data were processed

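Values are the authors' counts for each gene, deposited for the 6 libraries as whole numbers with no normalization. TRIzol RNA and TruSeq RNA libraries were used, per the labels' protocols. STAR 2.4, HTSeq 0.6.1, DESeq2 and mm9 are named in the submitters' processing notes, without role or order, while gene annotation and strand setting have no source here.

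Counts were analysed with edgeR 4.0.16 in R 4.3.3: filterByExpr, TMM factors, robust glmQLFit and glmQLFTest, and Benjamini-Hochberg adjustment over 13406 genes, with an adjusted p below 0.05 as the threshold. The approximate SE is the log2 fold change divided by the root of the F statistic. The procedure was tested on simulated data. The members and lists were chosen with earlier results of these data known. From each list, up to 4 called genes in each direction by smallest p are named, with 16 further genes chosen for their role and the 5 nearest profiles. Beyond that rule, genes such as Cd52, Fos, Gata1, Tie1, Angpt2, Sec62, Atp6v1c1, Emc2, the nearest neighbours and the untested family members were named after their values were seen. Spi1 and Emc2 stand in the table as Sfpi1 and Ttc35. Gene order, lengths, overlaps and promoters are from RefSeq and GENCODE on GRCm38, which is not the build of the reads. Symbols of 96.4% of tested genes matched. Some genes of the lists are counted but not reported here by name.

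Alternatives were RLE and upper-quartile scaling, DESeq2 1.42.0, limma 3.58.1 voom, no filter, another prior count or pseudocount, and leaving out each library. In CPM, 3 counts were 0.117 to 0.18 in LSK-derived and 0.0885 to 0.123 in GMP-derived libraries.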

Additional observations from a re-analysis of the deposited data

How the results depend on the processing

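The values of Mecom and Angpt1 were higher in LSK-derived cells in every alternative run. The Mecom log2 fold change was 11.22 by limma voom, 10.04 with a prior count of 2 and 10.43 to 11.19 when single libraries were left out. That of Angpt1 was 1.95 to 2.23 when they were left out. Of 34 tested genes outside the 4 that were named by list or role, 26 were called, 18 of them in all alternatives. Of the 8 not called, 4 were called in some alternative. Further named genes, among them the nearest profiles and those named after their values were seen, are not among the 34. Outside the 34, Sec62, Emc2, Fos, Cd52 and Atp6v1c1 lost their calls in 7, 6, 6, 5 and 3 of 11 alternatives. Gata1, not called, was called in 2 of 11.

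Leaving out single libraries moved the genes called higher to 770 to 1523 and lower to 973 to 1944, where all 6 libraries gave 1577 and 1867. By list, called higher and lower ran 0 to 1 and 0 to 1 for the PR domain family, 3 to 5 and 2 to 5 for partners, 2 to 7 and 4 to 7 for targets, 1 to 4 and 1 to 2 for the angiopoietin genes, 0 to 1 and 1 to 2 for SET and PP2A, and 3 to 4 and 2 to 7 for neighbours. With DESeq2, 9 partners, 6 targets and 4 angiopoietin genes were called higher and 3 SET and PP2A genes lower. With no filter, 2 angiopoietin genes were called lower. Ppp2ca changed sign: its log2 fold change, -0.0043, was 0.021 with upper-quartile scaling, 0.00024 by voom, 0.0042 without LSK-derived library 46, 0.046 without GMP-derived library 5 and 0.0085 without GMP-derived library 11, and -0.070 without GMP-derived library 19. The cause was not tested.

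No paired analysis was possible because the 2 groups share no replicate numbers. With 3 libraries a group, 8 Mecom reads in GMP-derived cells and 2 Setbp1 reads in all, depth limits the size of the Mecom fold change and leaves Setbp1 and Prdm16 without one.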
